A study of Homo sapiens with 3 samples.

Results

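The proteasome genes were the 43 genes, of 15625 in the deposited table, whose KEGG pathway annotation holds the entry Proteasome. They were measured by RNA-seq with a strand-marking mRNA kit in HCT116, a human colorectal cancer line. One group was given shRNA against circRAPGEF5, a circular RNA (sh_circRAPGEF5, 2 libraries), and the other a control shRNA (sh_control, 1 library). All libraries came from transfected cells with the genotype label MT, a term without an explanation there, and were collected at 36 or 48 h. The time of each single library is not given, nor whether the sh_circRAPGEF5 libraries are separate hairpins, cultures or repeats. The gene table holds no circular RNA, so the knockdown itself was not checked here. The series title places the study in RAS/RAF/MEK/ERK signaling.

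The proteasome is the protease complex that degrades ubiquitin-tagged proteins. Its 20S core is a barrel of alpha and beta subunits, and the beta subunits PSMB5, PSMB6 and PSMB7 cut peptide bonds. The 19S cap recognises ubiquitin, unfolds the substrate with a ring of ATPases and feeds it into the core. Under interferon gamma, cells build the immunoproteasome, in which PSMB8, PSMB9 and PSMB10 take the places of PSMB5, PSMB6 and PSMB7. It is known for producing peptides for MHC class I presentation. PSME1 and PSME2 form the activator PA28, which caps the core in place of the 19S complex and is also induced by interferon. The transcription factor NFE2L1 raises proteasome subunit genes together when degradation is blocked. It acts through antioxidant response elements.

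Levels are in FPKM, which divides the fragments of a gene by its length and by the size of the library, so genes can be set side by side per length. In bulk RNA, fewer cells of a type and less RNA per cell cannot be told apart. Fold changes are log2 differences of FPKM + 1, the sh_circRAPGEF5 libraries minus sh_control, and understate the change of low genes. The smallest whole reads that give the FPKM ratios summed to 14832142 and 15758794 in sh_circRAPGEF5 libraries 1 and 2 and to 14632390 in sh_control. True read numbers may be larger. All 6 epithelial markers were present: EPCAM, an epithelial surface protein, was at 170.0 and 191 FPKM in sh_circRAPGEF5 libraries 1 and 2 and at 176 FPKM in sh_control. The keratins KRT8, KRT18 and KRT19 were higher than the control in both libraries, CDH1 was lower in both, and all 6 markers were higher in library 2 than in library 1. Leukocytes, which carry the immunoproteasome constitutively, had summed marker levels of 5.18 and 10.4 FPKM in sh_circRAPGEF5 libraries and 4.92 FPKM in sh_control over 5 genes in the table. The defining leukocyte marker PTPRC was listed at 0 and 0.00901 FPKM in sh_circRAPGEF5 libraries 1 and 2 and at 0 in sh_control.

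PSMB8, PSMB10, PSME1 and PSME2, which are interferon-inducible, carried stretches like the interferon-stimulated response element near their start sites, and these stretches are shown because their genes lay on both sides of the control. The letters GAAANNGAA, TTCNNTTTC on the other strand, stand in capitals. TTCNNNGAA, the gamma-activated site, is also in capitals in PSMB8. Sequences are from RefSeq, GRCh38.p14, given 5′ to 3′ on the gene's strand. Those of PSMB8 (chr6:32844027-32844127) and PSMB10 (chr16:67936848-67936886) are on the minus strand, that of PSME1 (chr14:24136185-24136223) on the plus strand and that of PSME2 (chr14:24146615-24146653) on the minus strand.
PSMB8: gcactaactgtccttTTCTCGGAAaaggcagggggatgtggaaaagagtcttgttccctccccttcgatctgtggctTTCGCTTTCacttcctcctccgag
PSMB10: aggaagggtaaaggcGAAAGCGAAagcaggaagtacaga
PSME1: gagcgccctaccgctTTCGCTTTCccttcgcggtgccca
PSME2: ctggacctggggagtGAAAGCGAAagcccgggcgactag

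The promoter table covers 250 bases before to 50 bases after each start and held 49 windows of 38 members. For PSMA7, PSMB1, PSMB6, PSMB7 and PSMD4 no window was matched by gene ID. GAAANNGAA on either strand occurred in 8 of the 49 windows (16.3%), against 8.11% of all 35116 windows and 6.05% of windows of the genes tested. The other members with it were POMP, PSMA4, PSMB4 and PSMC2, and the PSMB9 window did not hold these letters. TTCNNNGAA occurred in 7 member windows (14.3%), against 7.66% of all windows and 6.06% of windows of the genes tested. These windows belonged to PSMA2, PSMB5, PSMB8, PSMC4, PSMD2, PSMD3 and PSME3, so most carriers were not immunoproteasome genes. Both interferon motifs were added after expression values were seen.

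Some core and cap genes carried the antioxidant response element letters TGACNNNGC, GCNNNGTCA on the other strand. Of core genes with a window these were PSMA4 and PSMB3 only. Of cap genes they were ADRM1, PSMC4, PSMC5, PSMD1, PSMD3, PSMD12 and SEM1. The letters are shown here for 3 members picked after their values were seen. PSMA4 (chr15:78540645-78540683) and PSMB3 (chr17:38752622-38752660) are core genes on the plus strand, and PSMD12 (chr17:67366719-67366757) is a lid gene on the minus strand, with the match in capitals.
PSMA4: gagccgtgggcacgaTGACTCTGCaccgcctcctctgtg
PSMB3: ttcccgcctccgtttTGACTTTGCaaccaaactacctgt
PSMD12: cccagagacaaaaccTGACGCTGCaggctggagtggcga

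The letters TGACNNNGC occurred in 15 member windows (30.6%) of 14 genes, against 13.3% of all windows and 14.6% of windows of the genes tested. Among the 14 were PSMB9, PSME1 and PSME2, which were below the control in both libraries. Whether the match goes with the direction of a gene was not tested. The ETS letters CCGGAAG occurred in 14 member windows (28.6%), against 10.3% of all windows and 17.9% of windows of the genes tested. Their genes were POMP, PSMA6, PSMC1, PSMC2, PSMC6, PSMD6, PSMD7, PSMD8, PSMD9, PSMD12, PSMD13, PSMD14, PSME4 and PSMF1. CCAAT occurred in 40.8% of member windows against 34.6% of all, and the GC box GGGCGG in 65.3% against 45% of all and 68.1% of windows of the genes tested. Matches overlapped in PSMA4 (CCAAT with the GC box) and PSME4 (ETS with the GC box). These counts describe letters and not binding.

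Most proteasome genes were higher with shRNA against circRAPGEF5 than in the control, while PSMB9 and PSME1 were lower. The interferon-inducible genes as a set were not on one side, since PSMB10 was higher in both libraries. Of 42 members with a mean of at least 1 FPKM, 34 were higher than sh_control in both sh_circRAPGEF5 libraries (81%), where 31.7% of the 11216 genes tested were. The 3 lower in both were PSMB9, PSME1 and PSME2 (7.14%, against 37.6% of all genes tested). The median log2 fold change of members was 0.44, with 0.35 in library 1 and 0.57 in library 2, and that of all genes tested was -0.05. Among genes with a mean of at least 5 FPKM, the median was 0.44 for members and 0.02 for all genes. The share of genes higher in both was not computed for genes matched to the members in level. PSMB8, the remaining member, lay below the filter on low values and was not tested.

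No member passed the test on its own, so the differences are given as values. Limma, with Benjamini-Hochberg adjustment over all genes tested, called 0 of 42 members at an adjusted p under 0.05 and 2 of the 11216 genes (0.0178%). At an unadjusted limma p under 0.05 were 5 members (PSMB5, POMP, PSMA7, PSMB9 and PSME1), 11.9%, against 7.07% of all genes tested. With 1 control library an exact permutation cannot go below p = 0.33, and both fold changes of a gene use the same control value, so a deviation of that library moves both. Differences between roles were therefore described and not tested.

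**Figure D1:**
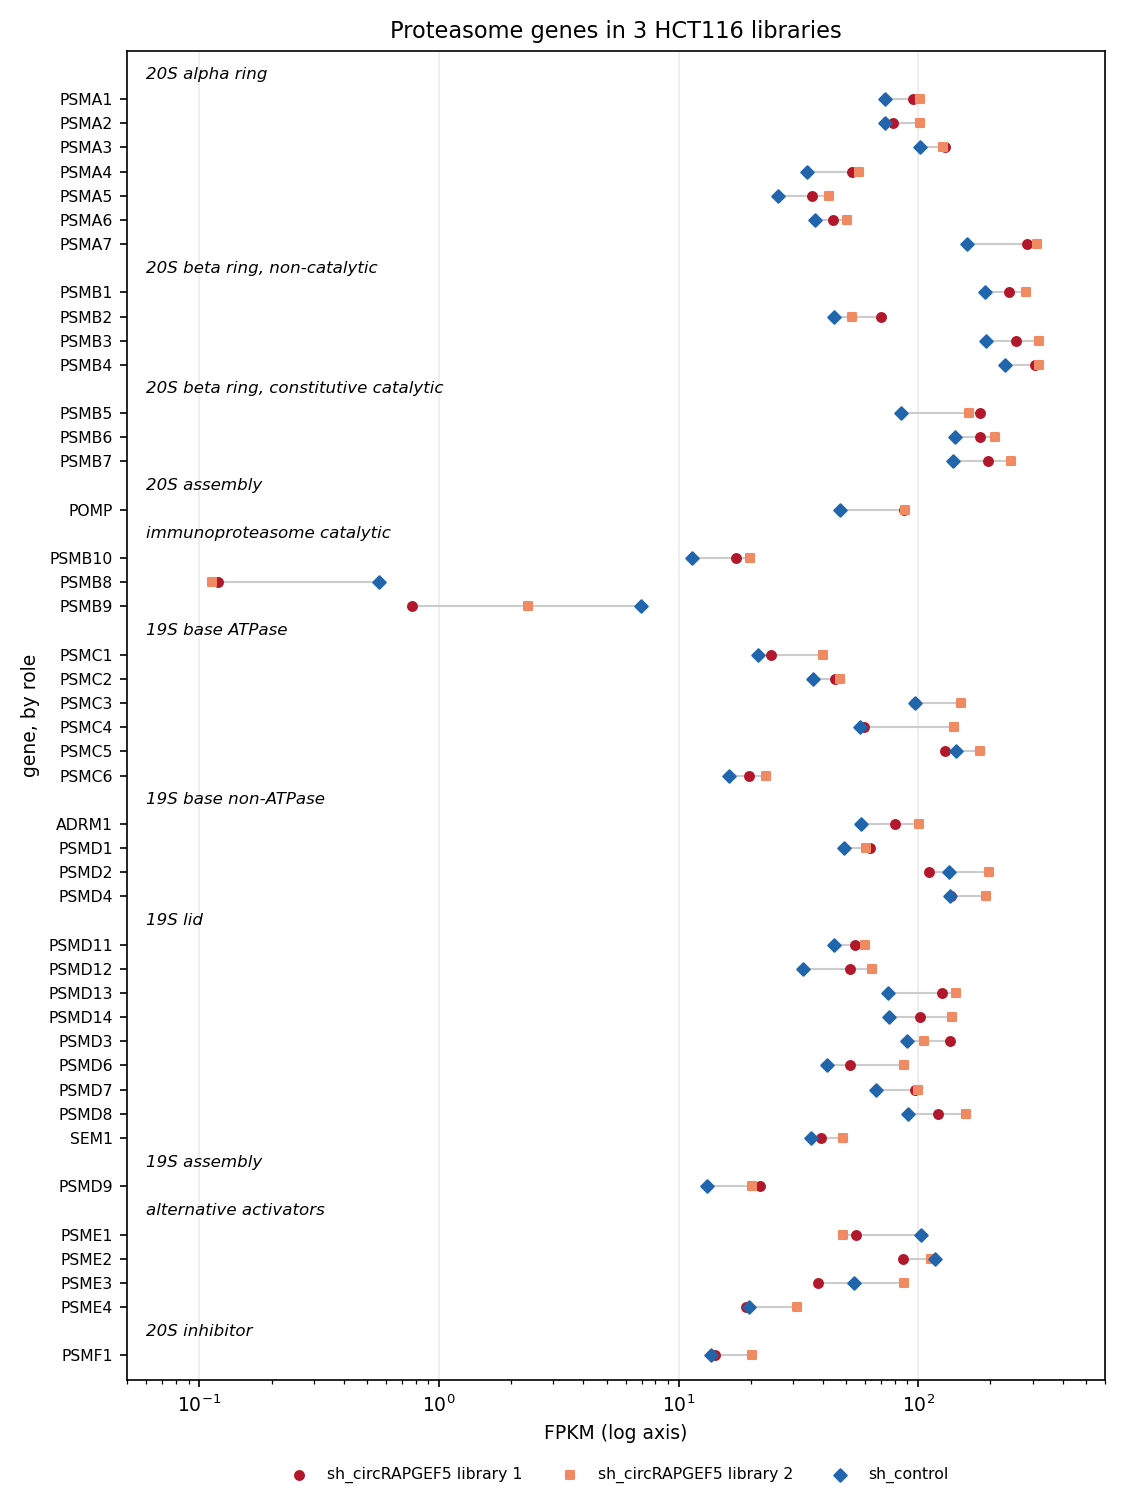
Level of each of the 43 proteasome genes (FPKM, log axis) in sh_circRAPGEF5 libraries 1 and 2 and in sh_control, by role, with a grey line from the lowest to the highest library. In the 20S alpha and beta rings the sh_control point is the lowest in all 14 genes, while for PSMB8, PSMB9, PSME1 and PSME2 it is the highest.

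All 14 genes of the constitutive core were higher in both sh_circRAPGEF5 libraries. Their summed level was 2148 and 2379 FPKM in sh_circRAPGEF5 libraries 1 and 2, against 1526 FPKM in sh_control, and the median log2 fold change was 0.45. Levels within the core spanned 8.54-fold and 7.51-fold in sh_circRAPGEF5 libraries 1 and 2 and 8.83-fold in sh_control, although each subunit occurs in equal number in the complex. PSMA5 was the lowest in every library.

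PSMB5 had the highest mean fold change of both libraries among the 42 members tested. In library 2 alone PSMC4, PSMD6, PSMA7 and PSMD12 were above PSMB5, and PSMD13 was level with it (0.9311 against 0.9310). PSMB5 encodes the chymotrypsin-like subunit that bortezomib inhibits and lies on GRCh38 chromosome 14, 23016543 to 23035230. It was at 181 and 162 FPKM in sh_circRAPGEF5 libraries 1 and 2, a mean of 172 ± 13.6 (SD, n = 2), against 84.6 FPKM in sh_control. Both libraries lay well above the control, and library 1 was the higher of them. The log2 fold change was 1.01 ± 0.39 (SE; limma adjusted p = 0.628). The other catalytic genes differed by less: PSMB7, the trypsin-like subunit, was at 195 and 244 FPKM in sh_circRAPGEF5 libraries and 139 FPKM in sh_control. PSMB6, the caspase-like subunit, was at 181 and 208 FPKM in sh_circRAPGEF5 libraries and 142 FPKM in sh_control.

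The alpha ring, which gates entry to the barrel, was led by PSMA7. It was at 283 and 314 FPKM in sh_circRAPGEF5 libraries 1 and 2, against 160.0 FPKM in sh_control, or 0.89 ± 0.40 (SE) on the log2 scale (limma adjusted p = 0.706). PSMA4 was at 52.8 and 56.6 FPKM in sh_circRAPGEF5 libraries and 34.4 FPKM in sh_control. These were the alpha genes at least 1.5-fold higher in both libraries. PSMA5 was next, at 36.0 and 42.4 FPKM in sh_circRAPGEF5 libraries and 26.1 FPKM in sh_control. PSMA1 (log2 fold change 0.44), PSMA3 (0.33), PSMA6 (0.34) and PSMA2 (0.29) were nearer to the control. PSMA2 was the member of the ring nearest to it in library 1. PSMA2 was at 78.1 and 101 FPKM in sh_circRAPGEF5 libraries and 72.7 FPKM in sh_control. The GENCODE records of PSMA1, PSMA2 and PSMA6 overlap other protein-coding records on the same strand by 15471, 15318 and 38842 bases, so their reads are uncertain.

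The non-catalytic beta genes PSMB1, PSMB2, PSMB3 and PSMB4 had log2 fold changes from 0.44 to 0.58. PSMB4 was the most abundant member in library 1 and in sh_control, and PSMB3 in library 2. PSMB4 was at 307 and 318 FPKM in sh_circRAPGEF5 libraries 1 and 2 and at 230.2 FPKM in sh_control, and PSMB3 was at 257 and 318 FPKM in sh_circRAPGEF5 libraries and 191 FPKM in sh_control. PSMB1 was at 239 and 282 FPKM in sh_circRAPGEF5 libraries and 190.3 FPKM in sh_control. PSMB2 differed from its neighbours in order, with library 1 the highest at 69.9 FPKM, library 2 at 52.8 FPKM and sh_control at 44.6 FPKM.

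POMP, the chaperone that escorts assembly of the 20S core, was as far above the control as the leading subunits. It was at 87.4 and 87.7 FPKM in sh_circRAPGEF5 libraries 1 and 2, a mean of 87.5 ± 0.190 (SD, n = 2), against 46.9 FPKM in sh_control. The sh_circRAPGEF5 libraries almost coincided. The log2 fold change was 0.89 ± 0.39 (SE; limma adjusted p = 0.692). PSMD9, a chaperone of the 19S base, was at 21.9 and 20.2 FPKM in sh_circRAPGEF5 libraries against 13.1 FPKM in sh_control, a log2 fold change of 0.64.

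Of 19 cap genes, 16 were higher in both sh_circRAPGEF5 libraries and for 3 the control lay between the libraries. The median log2 fold change of the cap was 0.41, with 0.31 in library 1 and 0.58 in library 2. All 9 lid genes were among the 16. The lid had a median of 0.59, with 0.42 in library 1 and 0.78 in library 2. PSMD13 was at 126 and 144 FPKM in sh_circRAPGEF5 libraries and 75.1 FPKM in sh_control, or 0.83 ± 0.39 (SE) on the log2 scale (limma adjusted p = 0.715). PSMD12, a structural lid subunit whose promoter stretch is shown above, was at 51.9 and 64.0 FPKM in sh_circRAPGEF5 libraries against 32.9 FPKM in sh_control. PSMD14, the deubiquitinase that strips ubiquitin chains from substrates, was at 102 and 139 FPKM in sh_circRAPGEF5 libraries against 75.8 FPKM in sh_control.

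Other lid genes differed between the sh_circRAPGEF5 libraries. PSMD6 was at 51.8 and 86.8 FPKM in sh_circRAPGEF5 libraries 1 and 2 and 41.5 FPKM in sh_control, so that library 1 lay near the control. PSMD3 had the reverse order, at 135 and 105 FPKM in sh_circRAPGEF5 libraries 1 and 2 against 89.8 FPKM in sh_control. PSMD8 (log2 fold change 0.59), PSMD7 (0.56), PSMD11 (0.36) and SEM1 (0.28), a small acidic lid protein, completed the lid. PSMD7 was at 97.3 and 100.1 FPKM in sh_circRAPGEF5 libraries and 66.8 FPKM in sh_control.

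The base ATPases, which unfold the substrate, were close to the control in library 1 and above it in library 2. Their median log2 fold change was 0.11 in library 1 and 0.56 in library 2, and all 6 were higher in library 2 than in library 1. PSMC4 was the farthest apart, at 59.1 and 141 FPKM in sh_circRAPGEF5 libraries 1 and 2 and 57.3 FPKM in sh_control. PSMC1 was at 24.3 and 39.95 FPKM in sh_circRAPGEF5 libraries and 21.5 FPKM in sh_control, but it has 13 annotated pseudogene copies, so its reads are uncertain. PSMC3 was at 96.7 and 151 FPKM in sh_circRAPGEF5 libraries and 97.3 FPKM in sh_control, with library 1 level with the control. PSMC5 was at 129 and 180.3 FPKM in sh_circRAPGEF5 libraries and 144 FPKM in sh_control, on opposite sides. PSMC2 (log2 fold change 0.34) and PSMC6 (0.38) were higher in both libraries.

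Of the 4 non-ATPase base genes, PSMD2 was below the control and PSMD4 close to it in library 1, and ADRM1 and PSMD1 were above it in both libraries. PSMD2, a scaffold that docks ubiquitin shuttles, was at 111 and 198 FPKM in sh_circRAPGEF5 libraries 1 and 2 and at 134 FPKM in sh_control, which lay between them. The ubiquitin receptor PSMD4 was at 137 and 191 FPKM in sh_circRAPGEF5 libraries and 136 FPKM in sh_control. The other receptor, ADRM1, was higher in both, at 80.0 and 101 FPKM in sh_circRAPGEF5 libraries and 57.7 FPKM in sh_control. PSMD1, the second scaffold, was at 63.0 and 60.8 FPKM in sh_circRAPGEF5 libraries and 49.2 FPKM in sh_control. The median core level over the median cap level was 1.94 and 1.43 in sh_circRAPGEF5 libraries 1 and 2 and 1.61 in sh_control, so the control lay between them.

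**Figure D2:**
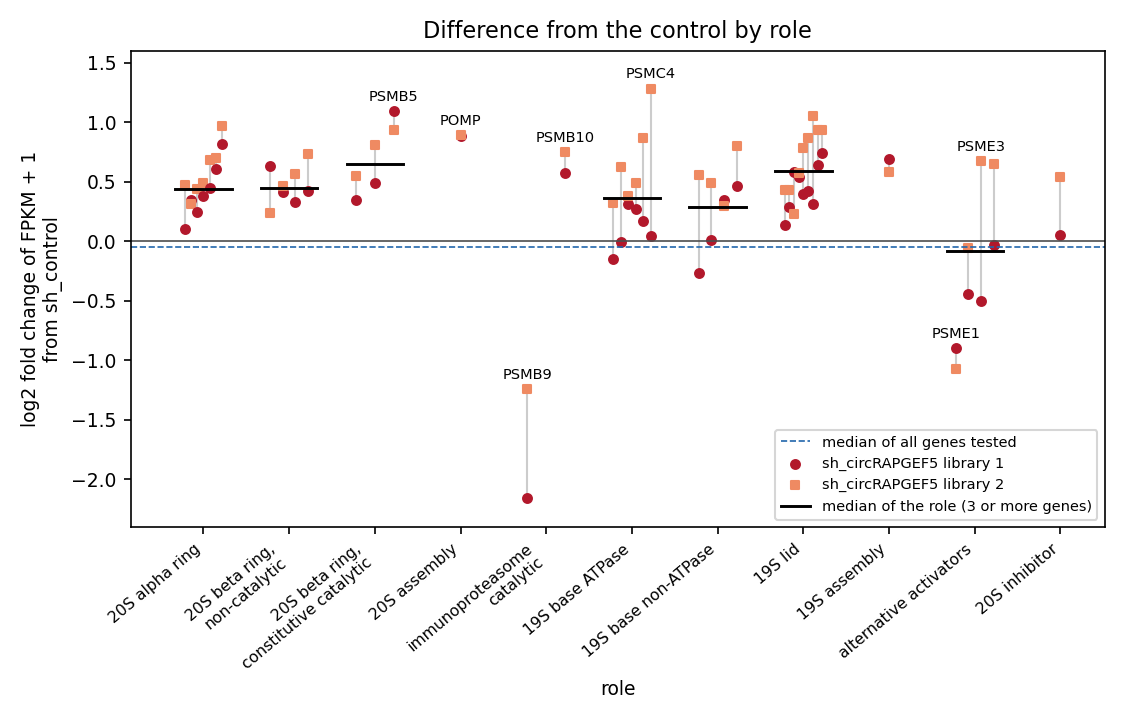
Difference of each of the 42 tested members from sh_control (log2 fold change of FPKM + 1), by role, with a red circle for sh_circRAPGEF5 library 1, an orange square for library 2, black lines for the median of roles with 3 or more genes and a dashed line at the median of all genes tested (-0.05). PSMB9 and PSME1 are below 0 in both libraries, all 20S ring genes are above 0, and base ATPases such as PSMC4 have their squares well above their circles.

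Library 2 was above library 1 in 35 of 42 members (83.3%), where 51.1% of all genes tested were. At least 1.5-fold higher in library 2 were 8 members (19.05%, against 13.8% of all genes tested), and 0 members were that much higher in library 1 (12.9% of all genes tested). On FPKM + 1, 6 members (14.3%, against 5.52% of all genes tested) were at least 1.5-fold higher than sh_control in both libraries. These were PSMA4, PSMA7, PSMB5, POMP, PSMD12 and PSMD13. On FPKM itself, PSMB10 (ratios 1.53 and 1.74) and PSMD9 (1.66 and 1.53) were also past 1.5-fold in both libraries. Taken singly on FPKM + 1, library 2 had 19 members at least 1.5-fold higher and library 1 had 8. PSMB2 and PSMD9 passed in library 1 and not in library 2. At least 1.5-fold lower in both were PSMB9 and PSME1 (4.76%, against 7.40% of all genes tested).

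PSMB8 was scarce in each HCT116 library, while PSMB9 was at 6.94 FPKM or less and PSMB10 at 11.4 FPKM or more. These immunoproteasome genes lay on both sides of the control. PSMB9, the interferon-inducible counterpart of PSMB6, was at 0.774 and 2.36 FPKM in sh_circRAPGEF5 libraries 1 and 2, against 6.94 FPKM in sh_control. Both libraries lay below the control, library 1 the farther. At least 13 and 42 reads in the sh_circRAPGEF5 libraries and 115 reads in sh_control stood behind these values. The FPKM ratio to the control was 0.112 in library 1 (95% exact interval 0.0576 to 0.198) and 0.340 in library 2 (0.233 to 0.488), intervals that cover counting error only. The log2 fold change was -1.70 ± 0.50 (SE; limma adjusted p = 0.499). It depended on the pseudocount, at -2.26 with 0.1 and -0.87 with 5, where PSME1 was lower at -0.94.

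PSMB8, the counterpart of PSMB5, was nearly undetected. It was at 0.119 and 0.112 FPKM in sh_circRAPGEF5 libraries 1 and 2, against 0.563 FPKM in sh_control. These values rest on at least 3 reads in each sh_circRAPGEF5 library and 14 reads in sh_control. The FPKM ratio to the control was 0.211 (95% exact interval 0.0390 to 0.757) in library 1 and 0.199 (0.0367 to 0.714) in library 2. PSMB10, the counterpart of PSMB7, was at 17.4 and 19.7 FPKM in sh_circRAPGEF5 libraries and at 11.4 FPKM in sh_control, on the same side as the core genes. Its GENCODE record overlaps AC040162.1 by 1516 bases on the same strand, so its reads are uncertain. Longer overlaps on the same strand occur in PSMA1, PSMA2, PSMA6 and PSMD9, whose reads are uncertain too. The FPKM ratios of PSMB10 were 1.53 (1.27 to 1.86) in library 1 and 1.74 (1.45 to 2.09) in library 2.

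The share of the immunoproteasome gene in each catalytic pair was lower in both libraries for PSMB8 and PSMB9 and not for PSMB10. PSMB8 made up 0.0656% and 0.0692% of the summed PSMB8 and PSMB5 level in sh_circRAPGEF5 libraries 1 and 2, against 0.662% in sh_control. PSMB9 made up 0.425% and 1.12% of its pair with PSMB6 in sh_circRAPGEF5 libraries and 4.66% in sh_control. PSMB10 made up 8.18% and 7.48% of its pair with PSMB7 in sh_circRAPGEF5 libraries and 7.55% in sh_control, which lay between them. PSMB8 and PSMB9 lie side by side in the MHC region of chromosome 6, at 32840717 to 32844703 and 32844136 to 32859585 on GRCh38, and PSMB10 on chromosome 16, 67934502 to 67937087. The GENCODE 29 records of PSMB8 and PSMB9 overlap by 568 bases on opposite strands, and that of PSMB9 overlaps TAP1 by 8770 bases. The kit marks strand, but the strand setting of the authors' counting is not given, so reads in these stretches are uncertain. Of 5 listed fibroblast markers, only COL1A1 and PDGFRB were in the table. COL1A1 lay on the same side as PSMB9, at 4.64 and 8.38 FPKM in sh_circRAPGEF5 libraries 1 and 2 and 13.4 FPKM in sh_control. PDGFRB was nearly undetected, at 0.0633 and 0.0498 FPKM in sh_circRAPGEF5 libraries and 0.0856 FPKM in sh_control. The 3 leukocyte markers tested did not share a side. CORO1A was on the side of PSMB9, at 1.34 and 0.898 FPKM in sh_circRAPGEF5 libraries 1 and 2 and 2.59 FPKM in sh_control. CD68 was on the other side, at 3.55 and 7.5 FPKM in sh_circRAPGEF5 libraries and 1.29 FPKM in sh_control, and for HLA-DRA the control lay between the libraries. The part of other cell types in these values was not tested.

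**Figure D3:**
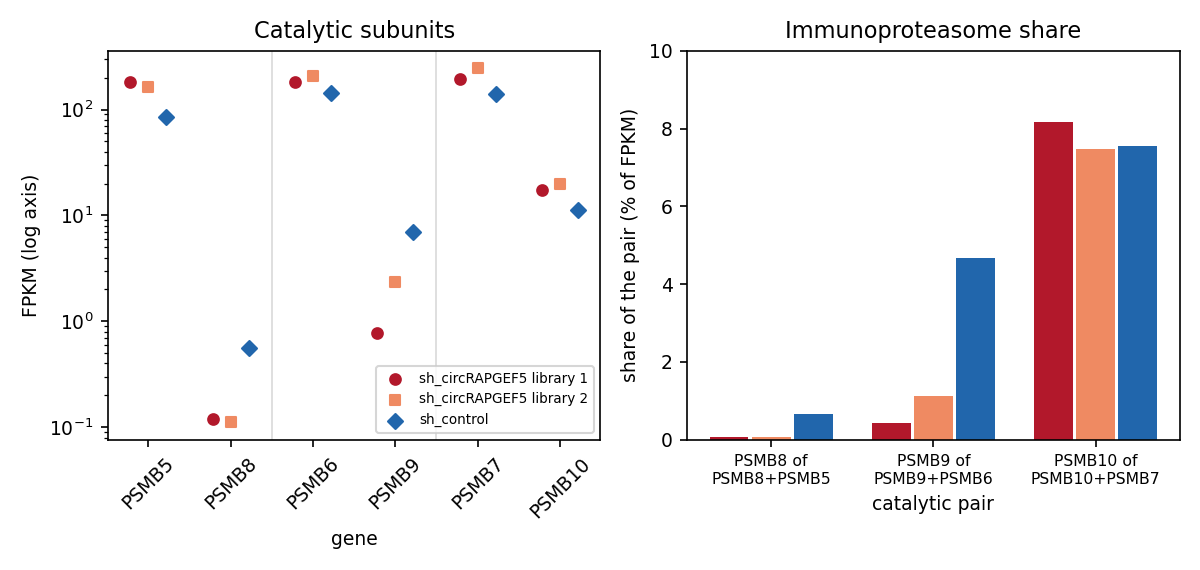
Left, level of the constitutive catalytic genes PSMB5, PSMB6 and PSMB7, each beside its interferon-inducible counterpart (FPKM, log axis), in sh_circRAPGEF5 libraries 1 and 2 and sh_control. Right, bars from 0 with the counterpart's share of each pair in percent of summed FPKM: the PSMB9 share is 0.425% and 1.12% in sh_circRAPGEF5 libraries and 4.66% in sh_control, while the PSMB10 share is between 7.48% and 8.18% in all libraries.

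Among the alternative activators, PSME1 stood apart. PSME1, the alpha subunit of PA28 (chromosome 14, 24136158 to 24138967), was at 54.7 and 48.3 FPKM in sh_circRAPGEF5 libraries 1 and 2, a mean of 51.5 ± 4.50 (SD, n = 2), against 103 FPKM in sh_control. Both libraries lay near 0.5 times the control. The log2 fold change was -0.99 ± 0.39 (SE; limma adjusted p = 0.628). PSME2, the beta subunit of the same ring and a close neighbour on chromosome 14, was at 86.4 and 113 FPKM in sh_circRAPGEF5 libraries and 118 FPKM in sh_control, with library 2 near the control. It has 2 annotated pseudogene copies.

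The nuclear activators differed between the sh_circRAPGEF5 libraries and gave no common direction. PSME3, PA28 gamma, was at 38.0 and 86.8 FPKM in sh_circRAPGEF5 libraries 1 and 2 and 54.1 FPKM in sh_control, which lay between them. PSME4, PA200, was at 19.2 and 31.2 FPKM in sh_circRAPGEF5 libraries and 19.6 FPKM in sh_control. PSMF1, which encodes the core inhibitor PI31, was at 14.2 and 20.2 FPKM in sh_circRAPGEF5 libraries and 13.6 FPKM in sh_control, with library 1 near the control.

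The listed assembly chaperones were mostly on the same side as the core. Of 8 genes, 7 were higher in both sh_circRAPGEF5 libraries and 0 lower, with a median log2 fold change of 0.46 (31.7% of all genes tested were higher in both). One of the 7 was PSMD9, which holds the Proteasome entry and is also counted above. PSMD10, the base chaperone gankyrin, was at 34.4 and 45.4 FPKM in sh_circRAPGEF5 libraries 1 and 2, against 21.5 FPKM in sh_control. The core chaperone PSMG1 was at 29.7 and 41.9 FPKM in sh_circRAPGEF5 libraries and 23.1 FPKM in sh_control, and the base chaperone PAAF1 at 2.71 and 2.81 FPKM in sh_circRAPGEF5 libraries and 1.72 FPKM in sh_control. PSMG4 lay on opposite sides. Limma called 0 of them, and 0 had an unadjusted p under 0.05.

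Of 9 genes of NFE2L1 processing and its partners, 8 were higher in both sh_circRAPGEF5 libraries, against 31.7% of all genes tested, and the median log2 fold change was 0.36. Limma called 0, and 2 (MAFF and MAFK) had an unadjusted p under 0.05, against 7.07% of all genes tested. MAFF, a small MAF protein that pairs with NFE2L1 and NFE2L2, was farthest from the control at 12.1 and 11.7 FPKM in sh_circRAPGEF5 libraries 1 and 2 and 2.71 FPKM in sh_control. Its log2 fold change was 1.80 ± 0.42 (SE; limma adjusted p = 0.381). A second small MAF gene, MAFK, was at 21.8 and 22.8 FPKM in sh_circRAPGEF5 libraries and 11.1 FPKM in sh_control. NFE2L1 itself was at 95.4 and 83.5 FPKM in sh_circRAPGEF5 libraries and 76.3 FPKM in sh_control, and NFE2L2, the oxidative stress regulator, had a log2 fold change of 0.25. SYVN1, the ligase that marks NFE2L1 for degradation, had 0.42. DDI2, the protease that activates NFE2L1, lay on opposite sides, at 3.68 and 6.07 FPKM in sh_circRAPGEF5 libraries and 5.97 FPKM in sh_control. NFE2L1 and DDI2 lie outside the rule for named genes and were chosen after their values were seen.

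Of 6 ubiquitin and ubiquitin-activating genes, 1 was higher than the control in both libraries and 3 were lower, where 31.7% of all genes tested were higher and 37.6% lower. The list's median was 0.06, although its library medians were -0.11 and -0.17. UBA6, an activating enzyme, was at 17.7 and 14.7 FPKM in sh_circRAPGEF5 libraries and 9.99 FPKM in sh_control, while UBA1, the main activating enzyme, was at 66.2 and 62.1 FPKM in sh_circRAPGEF5 libraries and 75.7 FPKM in sh_control. RPS27A, a ubiquitin and ribosomal protein fusion, was at 504 and 137 FPKM in sh_circRAPGEF5 libraries 1 and 2 and 580 FPKM in sh_control, so that library 2 alone stood apart.

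Of 13 proteasome-bound deubiquitinases, ligases and shuttles, 8 lay above the control in both libraries and 1 below it (31.7% and 37.6% of all genes tested), and the median was 0.13. The lower one was UCHL5, the deubiquitinase bound through ADRM1, at 5.59 and 3.11 FPKM in sh_circRAPGEF5 libraries and 7.43 FPKM in sh_control. ZFAND2A (log2 fold change 0.81), a stress-induced proteasome-binding protein, the ligase UBE3A (0.52) and TXNL1 (0.45) were the farthest above. Of 9 genes of the p97 unfoldase and its cofactors, 4 lay above and 2 below it in both (31.7% and 37.6% of all genes tested), with a median of -0.04 against library medians of 0.27 and 0.11. UFD1 (0.34), NSFL1C (0.32) and FAF2 (0.35) were above the control and UBXN4 (-0.28) below. Of 8 aggresome and selective autophagy genes, 5 lay above and 2 below it in both (31.7% and 37.6% of all genes tested), and the median was 0.36. GABARAPL2, an autophagosome protein, was at 64.3 and 39.4 FPKM in sh_circRAPGEF5 libraries and 25.7 FPKM in sh_control, and BAG3 (0.78) was also higher, while HDAC6 (-0.74) and OPTN (-0.51) were lower. Limma called 0 genes of these lists, and GABARAPL2 alone had an unadjusted p under 0.05, against 7.07% of all genes tested.

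Antigen-processing genes that work with the immunoproteasome gave no common direction. Of 12 tested, 1 was above the control in both libraries, 3 were below it and 8 lay on opposite sides. Of all 11216 genes tested, 31.7% were above, 37.6% below and 3439 genes on opposite sides. The list's median was 0.08, with library medians of -0.14 and 0.04. TAPBP, tapasin, which loads peptides onto MHC class I, was at 20.01 and 20.7 FPKM in sh_circRAPGEF5 libraries 1 and 2, against 42.4 FPKM in sh_control. Its log2 fold change was -1.03 ± 0.40 (SE, limma adjusted p = 0.628). No other gene of the list had an unadjusted limma p under 0.05, where 7.07% of all genes tested did. The peptide-trimming enzyme ERAP1 was at 1.48 and 0.9204 FPKM in sh_circRAPGEF5 libraries and 2.96 FPKM in sh_control. TAP1, the peptide transporter gene beside PSMB9, was above the control at 21.6 and 17.8 FPKM in sh_circRAPGEF5 libraries and 15.8 FPKM in sh_control. NLRC5, the MHC class I transactivator, had a log2 fold change of -0.22, which turned to 0.03 with quantile normalization.

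Of 10 interferon gamma signalling genes tested, 2 were above the control in both libraries and 5 below it, against 31.7% and 37.6% of all genes tested. The median was -0.14, with -0.29 in library 1 and 0.0035 in library 2. Limma called 0, and 0 had an unadjusted p under 0.05. IRF9 (log2 fold change -0.58) and STAT2 (-0.43), parts of the interferon-stimulated transcription complex, were below the control. The receptor chain IFNGR1 (0.65) and the kinase JAK2 (0.49) were above it. IRF1, which drives immunoproteasome genes, was at 5.36 and 7.44 FPKM in sh_circRAPGEF5 libraries 1 and 2 and 7.67 FPKM in sh_control, with library 2 near the control. IRF1 lies outside the rule for named genes and was picked with its values in view.

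**Figure D4:**
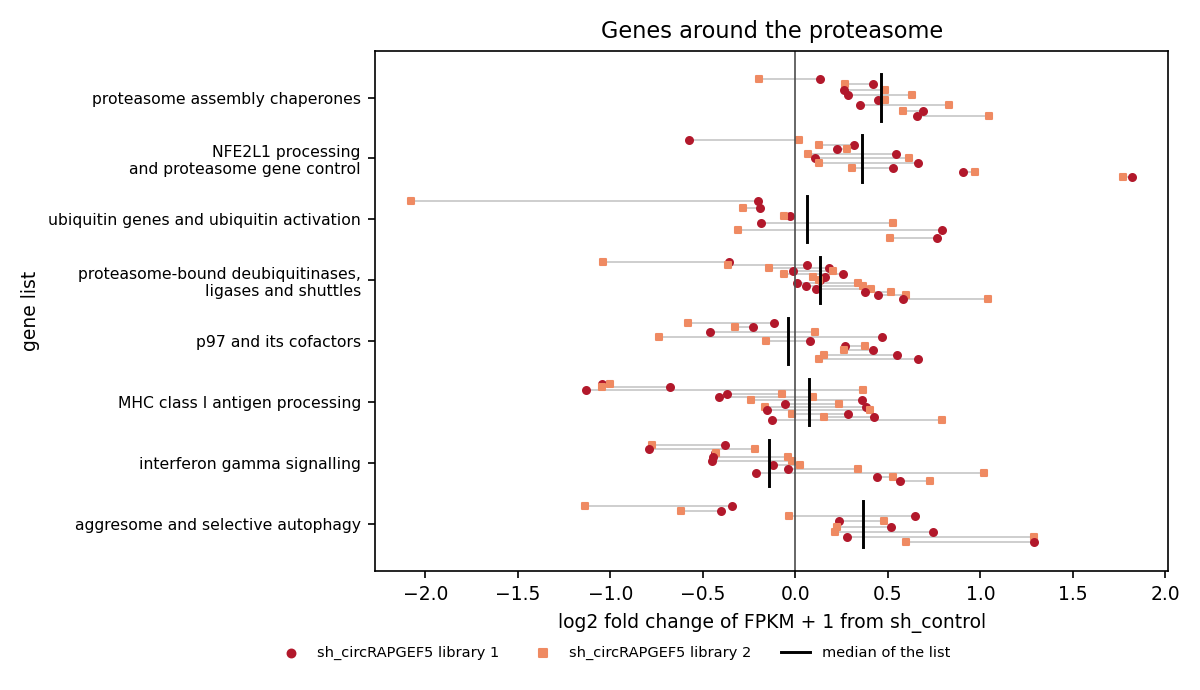
Log2 fold change of FPKM + 1 from sh_control for the tested genes of 8 lists around the proteasome, with a red circle for sh_circRAPGEF5 library 1, an orange square for library 2 and a black line at the list's median. Assembly chaperones (median 0.46) and NFE2L1-related genes (0.36) lie mostly to the right of 0, and interferon gamma signalling genes lie on both sides (library medians -0.29 and 0.0035).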

How the data were processed

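RNA-seq of HCT116 cells gave 2 sh_circRAPGEF5 libraries and 1 sh_control library. The deposited values are FPKM computed by the authors, with pathway names (other values) that the authors added per gene. Trimmomatic, HISAT2 and GRCh38.p13 were used, per the submitters' processing notes; for tool versions, annotation, counter and its strandedness, nothing is given in the sources used here. Genes with a mean of at least 1 FPKM (11216) were tested on log2(FPKM + 1) by limma 3.58.1 (R 4.3.3, variance trend over mean level), with Benjamini-Hochberg adjustment over all genes at 0.05. The fit had 1 residual and 10.92 prior degrees of freedom. The single control library is assumed to vary like the other libraries. Since the labels name no separate cultures, p-values reflect library-to-library spread alone, and that spread may be technical. Smallest whole reads were recovered from FPKM ratios (100% whole, tolerance 1e-09). Exact binomial intervals (Clopper-Pearson, 95%) of read ratios used scipy 1.17.1. Gene positions, pseudogenes and overlaps came from GENCODE 29 (GRCh38). Of the members, 12 had annotated pseudogene copies and 15 overlapped a protein-coding gene on the opposite strand, where reads are uncertain. PSMA1, PSMA2, PSMA6, PSMB10 and PSMD9 overlapped a protein-coding record on the same strand, where reads are also uncertain. All members are named, and up to 4 genes of each list, those farthest from the control in the nearer library; 1 gene the rule names is not reported here. The members and lists were chosen with earlier results of these data known. The interferon motifs and the role of PSMD9 were added after the table was read.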

Additional observations from a re-analysis of the deposited data

How the results depend on the processing

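Alternatives were pseudocounts of 0.1 and 5, no filter or a mean of at least 5 FPKM, median-ratio rescaling, quantile normalization, other limma settings and leaving out each sh_circRAPGEF5 library; a control library could not be left out. Members called stayed at 0 in every fit. Genes called were 2 in the main analysis, 1 with a pseudocount of 5, median-ratio rescaling, no trend or robust fitting, and 0 with no filter, quantile normalization or a prior of 5 degrees of freedom. Members at least 1.5-fold higher in both numbered 6, or 10 under median-ratio rescaling and 8 with a pseudocount of 0.1. They numbered 4 with a pseudocount of 5 or quantile normalization, and 8 to 19 in single libraries. Members lower in both were 3 to 8 in single libraries, and those higher 34 to 39, or 31 with quantile normalization. The median over members was 0.35 to 0.57 in single libraries and 0.31 with quantile normalization, that of the cap 0.31 to 0.58, and that of the core 0.42 to 0.56, or 0.31 with quantile normalization. Differences in immunoproteasome share (sh_circRAPGEF5 minus sh_control, in percentage points) with quantile normalization were -0.43 for PSMB8, -3.13 for PSMB9 and 1.17 for PSMB10, against -0.59, -3.89 and 0.28. In single libraries they were -0.60 to -0.59, -4.23 to -3.54 and -0.07 to 0.63. With quantile normalization PSMC5 (-0.11), PSMD2 (-0.0002) and PSME3 (-0.0435) were below 0, as were PSMC3 (-0.0082 to 0.63), PSMC5 (-0.15 to 0.32), PSMD2 (-0.27 to 0.56), PSME3 (-0.50 to 0.67) and PSME4 (-0.0281 to 0.65) in library 1 alone. NLRC5 (0.0289) turned with quantile normalization. The median of all genes tested, -0.05, was 0.0196 with a mean of at least 5 FPKM, 0.0323 with median-ratio rescaling and 0.0088 with quantile normalization. The causes were not tested. PSMB8 rests on at least 3 reads per sh_circRAPGEF5 library; with no filter its log2 fold change was -0.49 (limma adjusted p = 0.706). No paired analysis was possible because there was 1 control library for 2 sh_circRAPGEF5 libraries.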
